A study of Homo sapiens with 12 samples.

Results

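The response of each RNA to poly(I:C) was compared between A549 cells with and without RNase L. A549 is an epithelial cell line from a human lung carcinoma. The parental cells (WT) and a derivative carrying an RNase L knockout (RLKO) were left untreated or were transfected at 500 ng/ml with poly(I:C), a double-stranded RNA made by synthesis, and total RNA was sequenced 6 h later after depletion of rRNA. Each of the 4 groups (untreated WT, treated WT, untreated RLKO, treated RLKO) had 3 samples, described as independent, and all received ERCC spike-in RNAs. How the knockout was made and whether RLKO is a single clone are not stated in the labels. The authors deposited 1 FPKM value per gene and group (sequenced fragments, set relative to transcript length and library size), pooled over the 3 samples, so no spread between samples stands behind any value and the difference between the genotypes carries no test.

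The members were all genes with at least 10 FPKM in both untreated groups whose estimate had not failed, 8142 of 58671 gene rows, of which 6721 were protein-coding. For each, the log2 change after poly(I:C) was taken in WT and in RLKO on a scale set by the ERCC RNAs with 1 FPKM added. The difference of responses is the WT change minus the RLKO change, so a value below 0 means that the RNA was lower after poly(I:C), relative to its untreated level, in cells with RNase L than in cells without it.

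RNase L is a dormant endoribonuclease of the interferon system. Oligoadenylate synthetases (OAS) bind double-stranded RNA and make 2-5A, an oligoadenylate with unusual linkages; 2-5A joins RNase L monomers into active dimers, which cut single-stranded RNA after UA and UU dinucleotides. The enzyme is known for cleaving viral RNA, ribosomal RNA and much of the cell's own messenger RNA, while messages of antiviral defence continue to be made.

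All 10 epithelial and A549 markers reached 1 FPKM in at least 1 group, whereas 1 of 13 markers of blood, endothelial and fibroblast cells did (COL1A1, at most 7.17 FPKM). Among the 10, EPCAM, SFTPB and CDH1 were low, with highest values of 1.03, 1.19 and 4.52 FPKM, below that of COL1A1. The ERCC RNAs were higher in treated than in untreated libraries, by 0.61 log2 units in WT and by 0.18 in RLKO, and the 0.44 between these shifts enters every difference below. Fewer cells and less RNA per cell cannot be told apart in such bulk samples.

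Most RNAs were lower after poly(I:C) where RNase L was present. The median difference over all members was -0.85 (interval over genes -0.87 to -0.83; genes are not replicates), so the ratio of treated to untreated level in WT was 0.556 of the same ratio in RLKO. The middle 50% of members lay between -1.32 and -0.35, and 7047 members (86.6%) lay below 0. A difference of -1 or lower was seen in 3366 members, 41.3% against 20.2% of the 22087 rows with 1 FPKM in any group. A difference of 1 or higher was seen in 223 members, 2.74% against 18% of those rows, many of which were near 0 FPKM before treatment. The median change was -1.21 in WT and -0.38 in RLKO. On the spike-in scale the members were higher in WT than in RLKO by a median of 0.32 before treatment, and lower by 0.54 after it. Part of the difference thus lay in the untreated columns as scaled. The untreated gap depends on the spike-in divisors, which were 0.79 for untreated WT and 0.97 for untreated RLKO. In FPKM as deposited, untreated WT and RLKO had medians of 11.8 and 12.1 in the lowest decile of level, and of 567 and 477 in the highest. In FPKM as deposited the median was -0.43, with 1691 members at -1 or lower and 378 at 1 or higher; on that scale values are higher than those given here by up to 0.44. The authors' deposited table has its own column of this difference, with a median of -0.91 over 8099 members.

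**Figure D1:**
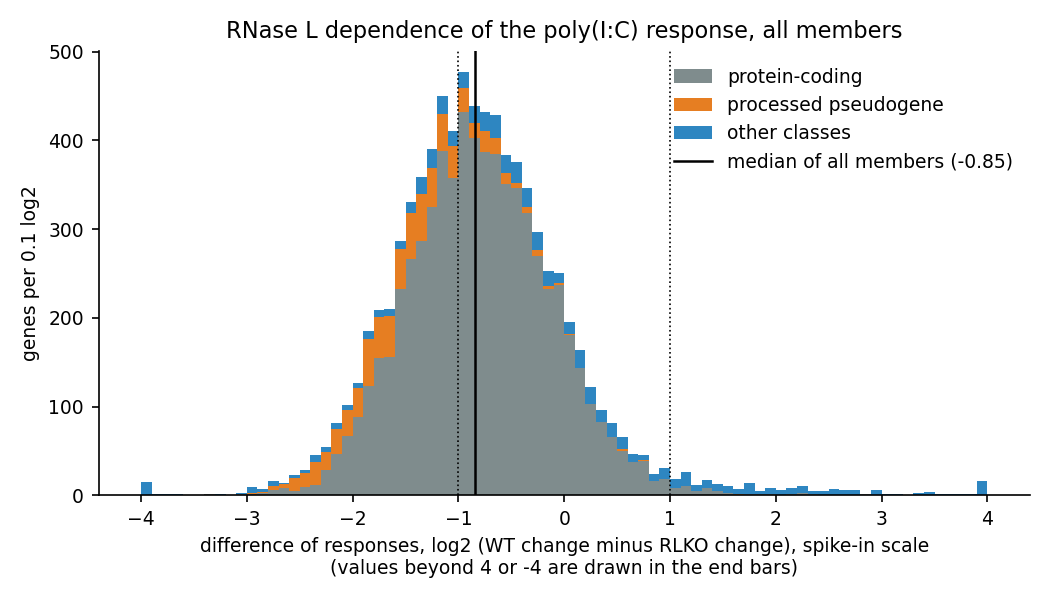
Number of members per 0.1 log2 units of the difference of responses (WT change minus RLKO change, spike-in scale), stacked by gene class; the solid line is the median of all members and the dotted lines mark -1 and 1. The bulk lies below 0 around the median of -0.85, processed pseudogenes lie further to the left, and the right tail is made mainly of classes other than protein-coding.

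Within each genotype the authors' own tests were read at q under 0.05. Whether a called gene fell or rose was read from FPKM as deposited, not from the spike-in scale of the changes given here. In WT 621 members fell, 7.63% against 3.35% of the rows with 1 FPKM, and 94 rose, 1.15% against 4.48%. In RLKO 3 members fell, 0.0368% against 0.0272%, and 15 rose, 0.184% against 0.512%. All 15 that rose in RLKO also rose in WT: the sensor DDX58 (RIG-I), the synthetase OAS3, the antiviral factors ZC3HAV1, ISG20, APOL2 and DDX60L, the transcription factors IRF1 and JUN, the signalling genes NFKBIA, PPP1R15A, NUAK2, PMAIP1 and PLAUR, the chemokine CXCL8, and ZFP36, which promotes decay of AU-rich messages. Their median difference was 0.75. The 79 members that rose in WT and did not pass in RLKO had a median of 1.09, and the 7425 called in neither genotype a median of -0.79. A gene that passed in WT and not in RLKO is not thereby shown to differ between them, and the calls share columns with the difference.

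The difference followed the untreated level. From the lowest to the highest decile of untreated level the median went from -0.47 to -1.64 in steps of the same direction, and the share of members at -1 or lower from 16.4% to 79.7%. The lowest decile had a median of 11.8 FPKM in untreated WT and 12.1 in untreated RLKO, the highest 567 and 477. In the same order the WT change went from -0.71 to -2.51 and the RLKO change from -0.25 to -0.94. The median transcript length went from 3609 to 1234 bases and the median half-life from 3.64 to 16.3 h, so abundance, length and stability moved together. Spearman's rho between the difference and the level was -0.44 over 8142 genes, as a description, since the untreated values enter both. For this reason the properties below were compared within 20 bins of untreated level.

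RNAs that are stable in unstressed cells had the lower differences. The half-life, in hours and no longer than 24 h, was taken by the authors from a separate study and was given for 6113 protein-coding members. In quintiles of half-life within level bins, whose median half-lives were 2.70, 3.45, 5.33, 8.67 and 17.7 h, the median difference was -0.53, -0.68, -0.79, -0.89 and -1.15. The step from the shortest to the longest was -0.62 (interval over genes -0.70 to -0.52), and the longest-lived quintile lay below the shortest-lived in 20 of 20 bins. The slope was in WT: between these quintiles the WT change differed by -0.46 and the RLKO change by 0.09. The 583 protein-coding members listed at 24 h had a median of -1.49, with 474 (81.3%) at -1 or lower, and the 2328 under 4 h a median of -0.50, with 470 (20.2%). Of all protein-coding members 38.2% lay at -1 or lower, and these shares are not matched for level.

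Members named at the 2 ends of half-life show the spread within each. PKDCC, listed at 1.98 h, went from 11.6 to 13.9 FPKM in WT and from 24.03 to 17.6 in RLKO, a difference of 0.27. GPX2, a glutathione peroxidase with the same half-life, went from 281 to 92.03 FPKM in WT and from 563 to 313 in RLKO, a difference of -1.19. YWHAQ, a 14-3-3 protein listed at 24 h, went from 404 to 210 FPKM in WT and from 350 to 332 in RLKO, a difference of -1.30. ZDHHC2, also at 24 h, lay at -1.20. None of these 4 passed in either genotype in the authors' deposited table, and GPX2 lay close to the stable genes despite its short half-life.

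Long transcripts had differences closer to 0. In quintiles of total length within level bins, whose median lengths were 1566, 2603, 3626, 4862 and 7484 bases, the median difference of protein-coding members was -1.11, -0.89, -0.81, -0.66 and -0.55. The longest quintile stood 0.56 above the shortest (0.48 to 0.65) and was the lower of the pair in 0 of 20 bins. The WT change differed by 0.72 between them and the RLKO change by 0.16. Coding length, taken as total length minus both UTR lengths where this was above 0, gave 0.57. It gave 0.26 among genes matched on level and total length. The UTR lengths may come from other transcripts, so this is not an annotated coding length. The annotated coding length of the principal transcript gave 0.63 at matched level. A large part of the length relation lay in the untreated columns: between the same quintiles untreated WT minus untreated RLKO differed by -0.32, treated WT minus treated RLKO by 0.21. Among genes matched on level and on that untreated gap the step was 0.30. For half-life the corresponding values were 0.13 untreated, -0.46 treated and -0.48 matched on the untreated gap.

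**Figure D2:**
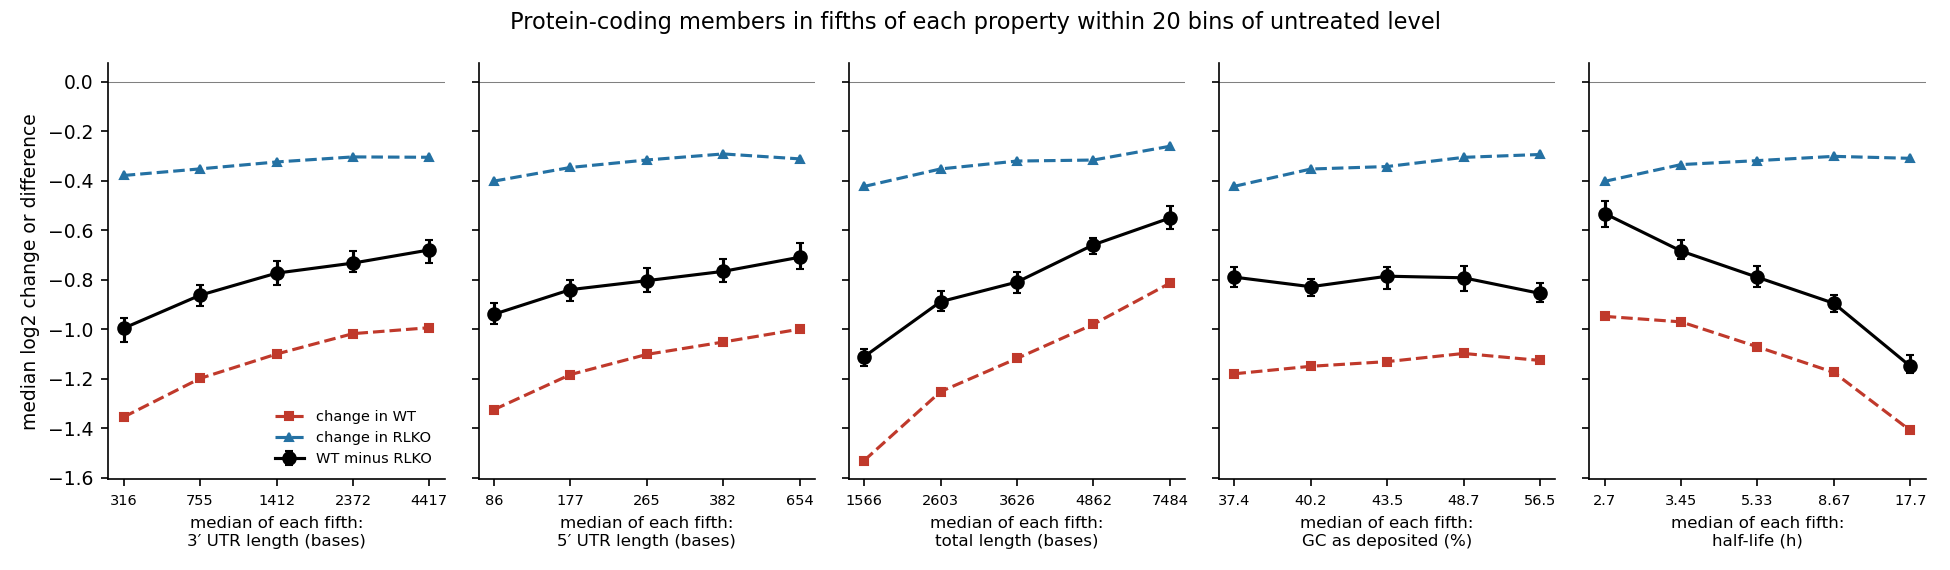
Median log2 values of protein-coding members in quintiles of 3′ UTR length, 5′ UTR length, total length, GC content and half-life, formed within 20 bins of untreated level; circles are the difference of responses with its 95% order-statistic interval over genes, squares the change in WT and triangles the change in RLKO, and the x axis gives the median property of each quintile. The difference runs from -1.11 to -0.55 with length and from -0.53 to -1.15 with half-life, while the RLKO change stays between -0.42 and -0.26 in both.

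Half-life and length each kept their relation when the other was held. With level and total length matched, the step from short to long half-life was -0.54 (-0.63 to -0.46), below 0 in 48 of 50 cells. With level and half-life matched, the step from short to long transcripts was 0.47 (0.39 to 0.54). Across the grid of both properties the median difference ranged from -0.29 for long transcripts of short half-life to -1.27 for short transcripts of long half-life. The short transcripts of short half-life and the long transcripts of long half-life met at -0.93.

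**Figure D3:**
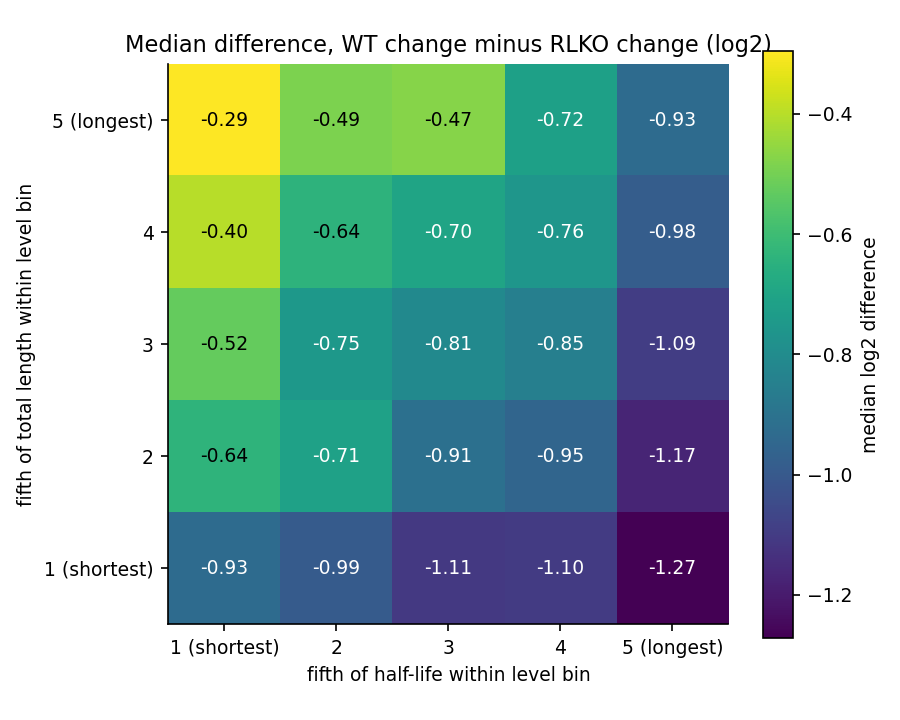
Median difference of responses (log2, WT change minus RLKO change) of protein-coding members in 25 cells, by quintile of half-life (x axis) and quintile of total length (y axis), both formed within bins of untreated level; colour and printed number give the median. The values fall from -0.29 at the upper left to -1.27 at the lower right.

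The untranslated regions and GC content had smaller relations, and some turned with the matching. At matched level the quintile with the longest 3′ UTR (median 4417 bases) stood 0.32 above that with the shortest (316 bases). With total length matched as well, the long 3′ UTR quintile stood lower instead, at -0.16 (-0.25 to -0.06), in 38 of 50 cells. At a given total length a longer 3′ UTR leaves a shorter coding length as computed here. This step and the 0.26 for coding length at matched level and total length are therefore not independent results. 3′ UTR and total length were related at a rho of 0.74. The longest 5′ UTR quintile stood 0.23 above the shortest at matched level, 0.11 with length matched and 0.17 with half-life matched. GC content gave -0.07 (-0.14 to 0.01) at matched level, 0.15 with length matched and 0.27 with the untreated gap matched, so no direction held for it. The source of the GC column is not stated. It was within 0.1 percentage points of the GC of the longest transcript in 97.6% of single-exon genes and in 1.92% of multi-exon genes, so it is not the GC of that transcript.

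The dinucleotides that RNase L cuts were counted in the longest annotated transcript of each gene, on the RNA strand alone, with overlaps counted. At matched level the quintiles richest and poorest in UA differed by -0.02 (-0.12 to 0.05), with medians of 7.33 and 1.98 UA per 100 bases. For UU the step was -0.01 (-0.11 to 0.05). With total length matched too, the richest quintiles stood lower, by -0.20 for UA and -0.21 for UU, each in 43 of 50 cells. The WT change then differed by -0.42 for UA and the RLKO change by -0.23, so the slope was in both genotypes. AUUUA, the core of AU-rich decay elements, gave 0.03 at matched level and -0.18 with length matched. Transcripts marked as principal in the annotation gave -0.03 for UA, -0.07 for UU and 0.55 for length at matched level.

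The genes at the ends of each property show single cases, which did not all follow the quintiles. The 2 longest members, which also have the longest 3′ UTRs, lay on either side of the median of all members. PCDH9, a protocadherin (28227 bases), went from 15.3 to 18.0 FPKM in WT and from 16.1 to 11.3 in RLKO, a difference of 0.29. SMAD2, a mediator of TGF-β signalling (34526 bases), went from 75.9 to 46.03 FPKM in WT and from 82.7 to 70.3 in RLKO, a difference of -0.90. Among the shortest members the mitochondrial tRNAs MT-TS2 (59 bases) and MT-TC (66 bases, a length it shares with others) lay far apart, at -2.10 and 0.89. At the short end of the 3′ UTR, RPS12, a ribosomal protein of the small subunit with 21 annotated bases, fell in WT from 1182 to 182 FPKM and went from 886 to 482 in RLKO, a difference of -2.25, with q = 0.0300 in WT in the authors' deposited table. CSNK2A3, with 1 annotated base, lay at -0.77. Of the members with the shortest annotated 5′ UTRs, CHURC1-FNTB lay at -2.78 and the scaffold protein TANC2 at 0.35, and of those with the longest, CCDC82 lay at -0.59 and ZC3H11A at -0.29. At the ends of GC content, RF02105 (1.65) and MT-TI (0.53) were lowest in GC, and MIR6789 (-2.42) and MIR4767 (-0.47, listed at 0 FPKM in both treated groups) highest. Each of these 4 is a short noncoding RNA.

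Messages for ribosomal proteins and the respiratory chain had low median differences. Of 78 cytosolic ribosomal proteins, 70 lay at -1 or lower (41.3% of all members did), 15 fell in WT (7.63% of all members did) and 0 in RLKO; their median was -1.89, with -2.81 in WT and -0.99 in RLKO. RPS21 of the small subunit (ENSG00000171858, chromosome 20, 62387116 to 62388520) fell in WT from 5931 to 623 FPKM and went from 3937 to 2121 in RLKO, a difference of -2.79 with q = 0.0130 in WT in the authors' deposited table. It was thus the highest of the 4 groups before treatment in WT and the lowest after. RPL36A (0.15) and RPL7L1 (0.22) stood above 0; RPL7L1 is a homologue and not a component of the mature ribosome. Relative to members of the same level the list's median was -0.25, and of the same level and length -0.30. Reads of these genes can be shared with their many processed pseudogenes.

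The nuclear-encoded respiratory chain was similar. Complexes II to V had 43 members with a median of -1.94, 41 at -1 or lower and 13 that fell in WT, and complex I 42 members with a median of -1.59, 36 at -1 or lower and 13 that fell. Of all members 41.3% lay at -1 or lower and 7.63% fell in WT. Relative to members of the same level the medians were -0.44 and -0.32. UQCRQ, a subunit of complex III, fell in WT from 1345 to 152 FPKM and went from 1044 to 503 in RLKO, a difference of -2.52 with q = 0.0447 in WT in the authors' deposited table. Mitochondrial ribosomal proteins (75 members) had a median of -1.47 and 15 that fell in WT against the same 7.63%, among them MRPS33 (-2.19). All members of these 3 lists lay below 0, from NDUFV3 (-0.73) and MRPL2 (-0.51) downward.

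Replication-dependent histone messages, which are short, mostly lack introns and end in a stem-loop in place of a poly(A) tail, had a median of -1.86 over 47 members, with 43 at -1 or lower and 8 that fell in WT (41.3% and 7.63% of all members). Their median change was -2.12 in WT and -0.19 in RLKO. HIST1H4B went from 3801 to 539 FPKM in WT, a fall with q = 0.0307 in the authors' deposited table, and from 2300 to 1979 in RLKO, a difference of -3.03. HIST1H4D (-3.03) and HIST1H3F (-2.86) also fell in WT. HIST2H2BE (-0.13) and H2AFX (-0.37) were the highest of the list; both are longer than most histone genes, at 2194 and 1614 bases. The list's median half-life was 3.64 h, so these messages combined a short half-life with a low difference. Relative to members of the same level the median was -0.13, and of the same level and length 0.12. Histone genes are near-identical copies, and the labels do not state how the authors' counting divided their reads.

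Other abundant housekeeping groups lay at or below the median of all members, and near 0 once level was matched. The medians were -1.49 for ER translocation and folding, -1.40 for the proteasome, -1.38 for NRF2 targets and ferritin, -1.37 for glycolysis and reference transcripts, -1.24 for aminoacyl-tRNA synthetases and for DNA replication and mitosis, and -1.17 for heat shock chaperones. Relative to members of the same level these 7 medians lay between -0.23 and 0.28. GAPDH, the glycolytic enzyme used as a reference, went from 3385 to 1160 FPKM in WT and from 3552 to 2737 in RLKO, a difference of -1.60, without passing in either genotype. ACTB lay at -1.48, and HPRT1, a purine salvage enzyme, at -1.93. EEF2, a translation elongation factor, went from 541 to 505 FPKM in WT and from 557 to 507 in RLKO, a difference of -0.40 and 1.34 above members of its level. EEF1A1, the factor that brings tRNA to the ribosome, lay at -1.85.

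Targets of the integrated stress response, which is set off when eIF2α is phosphorylated, had a median of -1.31 over 28 members, with 4 that fell and 1 that rose in WT (7.63% and 1.15% of all members). Relative to members of the same level the median was -0.26. ASNS, asparagine synthetase, fell in WT from 102 to 19.3 FPKM and went from 102 to 66.6 in RLKO, a difference of -2.16 with q = 0.00754 in WT in the authors' deposited table. PHGDH, the first enzyme of serine synthesis, lay at -2.11 and fell in WT. The transcription factor CEBPB rose in WT from 21.1 to 69.4 FPKM and lay at 0.16.

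**Figure D4:**
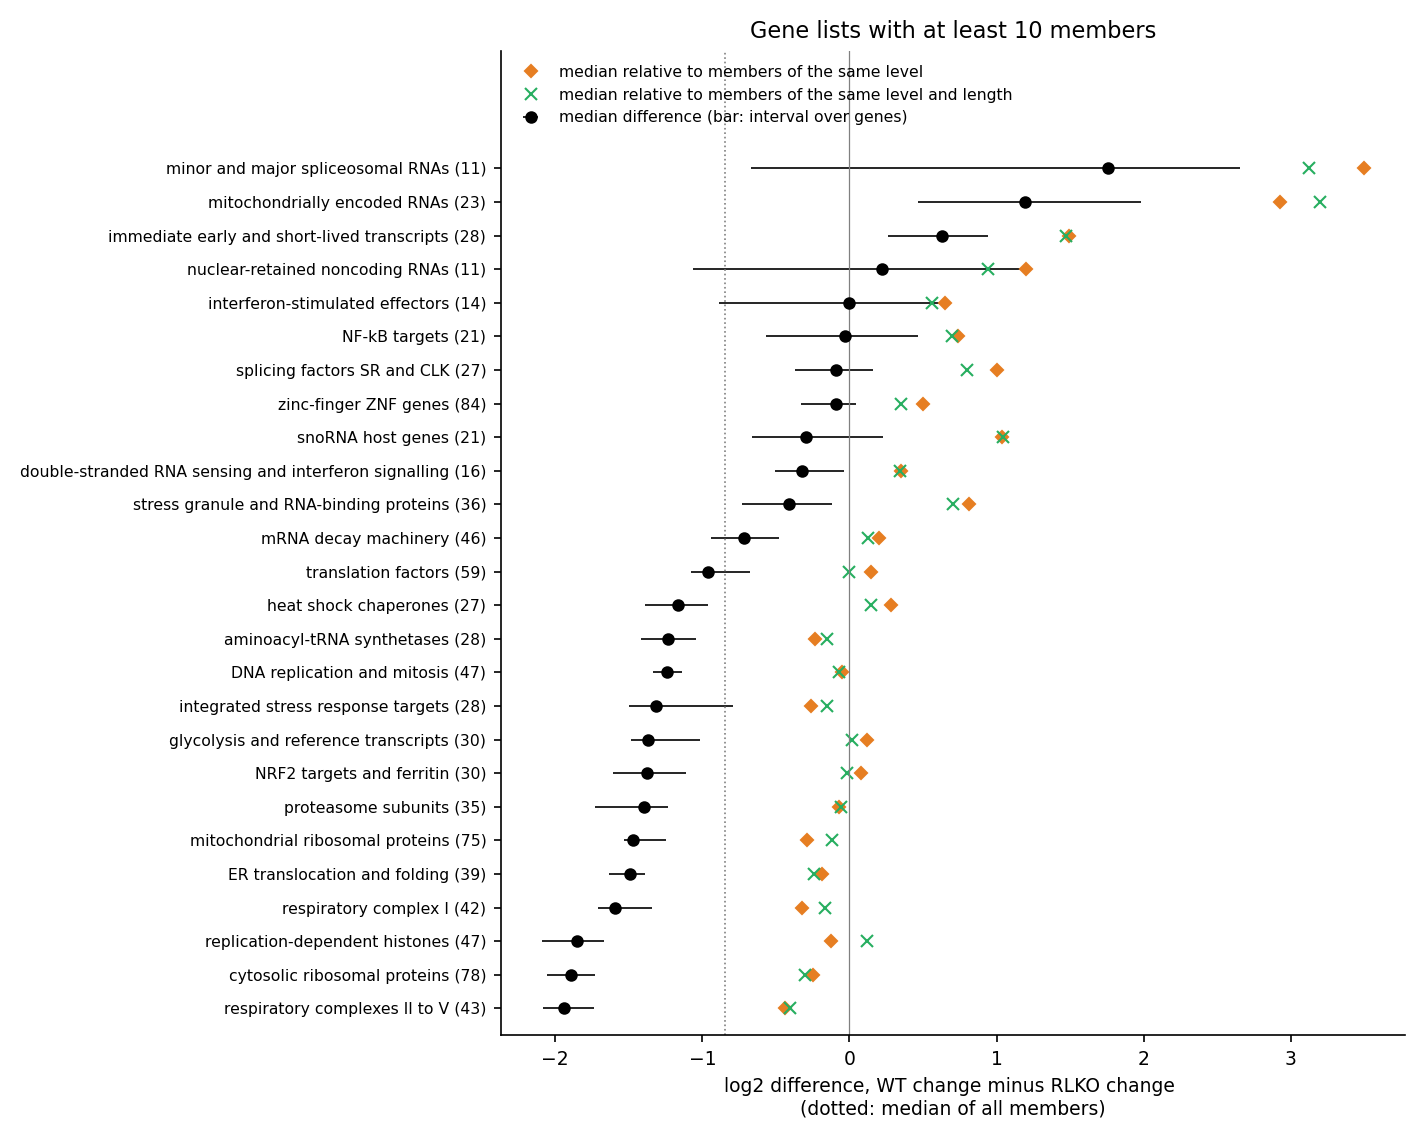
Median difference of responses (log2) of each gene list with at least 10 members, with its 95% order-statistic interval over genes (circles and bars), and the median after subtracting that of members of the same untreated level (diamonds) or the same level and length (crosses); the number of members is in parentheses. The lists run from -1.94 for respiratory complexes II to V to 1.76 for spliceosomal RNAs, and once level is matched most housekeeping lists lie near 0.

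Lists of defence genes that were already at 10 FPKM before treatment had medians above that of all members, while single members such as OAS1, JAK1 and UBE2L6 lay below it. For the 2-5A pathway the median was -0.74 over only 4 members. Its interval over genes, -1.44 to 0.02, includes the median of all members. Most defence genes were too low to be members: 4 of 10 genes of the 2-5A pathway, 16 of 30 of double-stranded RNA sensing, 14 of 64 interferon-stimulated effectors and 21 of 47 NF-kB targets qualified. OAS3 rose in WT from 17.7 to 97.8 FPKM and in RLKO from 16.6 to 67.9, a difference of 0.02 (q = 0.0112 and 0.0107 in the authors' deposited table). OAS1, another synthetase, went from 71.6 to 140 FPKM in WT and from 49.5 to 197 in RLKO, a difference of -1.44 without passing in either. ABCE1, known as an RNase L inhibitor, lay at -0.88, and CNP, a 2′,3′-cyclic nucleotide phosphodiesterase, at -0.61. The 2 synthetases thus stood apart by over 1 log2 unit.

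Among sensors and signalling genes the median was -0.33. DDX58 rose in WT from 11.2 to 141 FPKM and in RLKO from 12.7 to 163, a difference of -0.45. EIF2AK2, the kinase PKR, lay at 0.38, and TRIM25, a ligase of the RIG-I pathway, rose in WT and lay at 0.17. JAK1, a kinase below the interferon receptor, lay at -1.16. Of the 14 interferon-stimulated effectors 7 lay below 0 and 7 above, 6 rose in WT and 4 in RLKO (1.15% and 0.184% of all members). ZC3HAV1, the zinc-finger antiviral protein ZAP, rose from 12.1 to 370 FPKM in WT and from 15.3 to 135 in RLKO, a difference of 1.34, whereas UBE2L6, the conjugating enzyme of ISG15, went from 21.8 to 11.6 and from 18.9 to 21.5, a difference of -1.45. NF-kB targets had a median of -0.03, with 8 that rose in WT and 2 in RLKO against the same shares. The chemokine CXCL2 rose in WT from 20.002 to 229 FPKM and went from 17.3 to 41.2 in RLKO, a difference of 1.82. In FPKM as deposited the medians of these lists were 0.10 (sensing), 0.43 (effectors) and 0.41 (NF-kB), above 0 in each.

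Immediate early and short-lived transcripts had the highest median among lists of protein-coding genes. It was 0.63 over 28 members (1.49 above members of the same level), with 26 above 0, 12 that rose in WT and 3 in RLKO (1.15% and 0.184% of all members). ZFP36 (chromosome 19, 39406813 to 39409412) rose in WT from 15.7 to 378 FPKM and in RLKO from 19.2 to 74.9, a difference of 2.17 with q = 0.00180 in WT in the authors' deposited table. JUN rose in both, from 15.1 to 212 and from 13.8 to 72.6 FPKM, a difference of 0.99. IER2 rose in WT and lay at 1.44, and MCL1, a survival protein, lay at 0.71 without passing. KLF10 (-0.51) and DUSP4 (-0.07) were the 2 members below 0. The list's median half-life was 2.38 h.

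Genes of RNA processing stood above their level. SR proteins and CLK kinases of splicing had a median of -0.09 over 27 members (0.34 in FPKM as deposited), 1.00 above members of the same level. SRRM2, a scaffold of nuclear speckles, went from 98.4 to 204 FPKM in WT and from 117 to 88.8 in RLKO, a difference of 1.00. CLK1 lay at 0.75 and SRSF9 at -1.63. Stress granule and other RNA-binding proteins had a median of -0.41 over 36 members (0.02 in FPKM as deposited), 0.81 above their level, from MATR3 (-2.14) and G3BP1 (-1.20) to ATXN2L (0.52). Zinc-finger ZNF genes, with a median half-life of 2.47 h, had a median of -0.09 over 84 members (0.32 in FPKM as deposited). None of the SR, CLK and stress granule genes passed in either genotype.

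The mRNA decay machinery had a median of -0.72 over 46 members and spread widely. PAN2, of the PAN2-PAN3 deadenylase, went from 10.5 to 43.9 FPKM in WT and from 12.4 to 13.95 in RLKO, a difference of 1.39. TOB1, an adaptor of the CCR4-NOT deadenylase, lay at 0.94. LSM5 (-2.15), of the LSM ring on decapped messages, and EXOSC8 (-2.06), of the exosome, were at the other end. None of these 4 passed in WT. Translation factors had a median of -0.96 over 59 members, from EIF3E (-2.33) to EIF4ENIF1 (0.96), with 26 at -1 or lower against 41.3% of all members.

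The lowest differences among protein-coding members were AL034430.1 (-3.40), HIST1H4B, HIST1H4D, HIST1H3J (-2.96), CEP97 (-2.95), HIST1H4C (-2.90), S100P (-2.88) and HIST1H3F. S100P, a calcium-binding protein, fell in WT from 32.0 to 2.91 FPKM and went from 17.9 to 11.9 in RLKO, with q = 0.0188 in WT in the authors' deposited table. CEP97, a centrosomal protein, went from 53.1 to 6.60 FPKM in WT and from 39.9 to 32.8 in RLKO without passing (q = 0.353 in WT in the authors' deposited table). With 8361 bases it was far longer than the histone genes beside it, such as HIST1H4B with 438 bases. Its half-life was 2.35 h, against 2.82 h for HIST1H4B and 6.4 h for HIST1H3F. The highest were MT-ND4L (2.88), MT-ND4 (2.37), RSRP1 (2.32), MT-ND5 (2.30), PCF11 (2.27), MT-ND6 (2.23), ZFP36 and MT-CYB (1.98).

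RSRP1 and PCF11 were high in treated WT and had like levels in the other 3 groups. PCF11, of the 3′ end cleavage machinery (ENSG00000165494, chromosome 11, 83156988 to 83187451), rose in WT from 16.3 to 120 FPKM and stood at 22.6 and 24.3 in RLKO, with q = 0.00546 in WT in the authors' deposited table. RSRP1, an arginine- and serine-rich protein, rose in WT from 22.8 to 135 FPKM and went from 34.8 to 29.3 in RLKO (q = 0.00442 in WT in the authors' deposited table). ZFP36 instead rose in both genotypes, and more in WT.

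**Figure D5:**
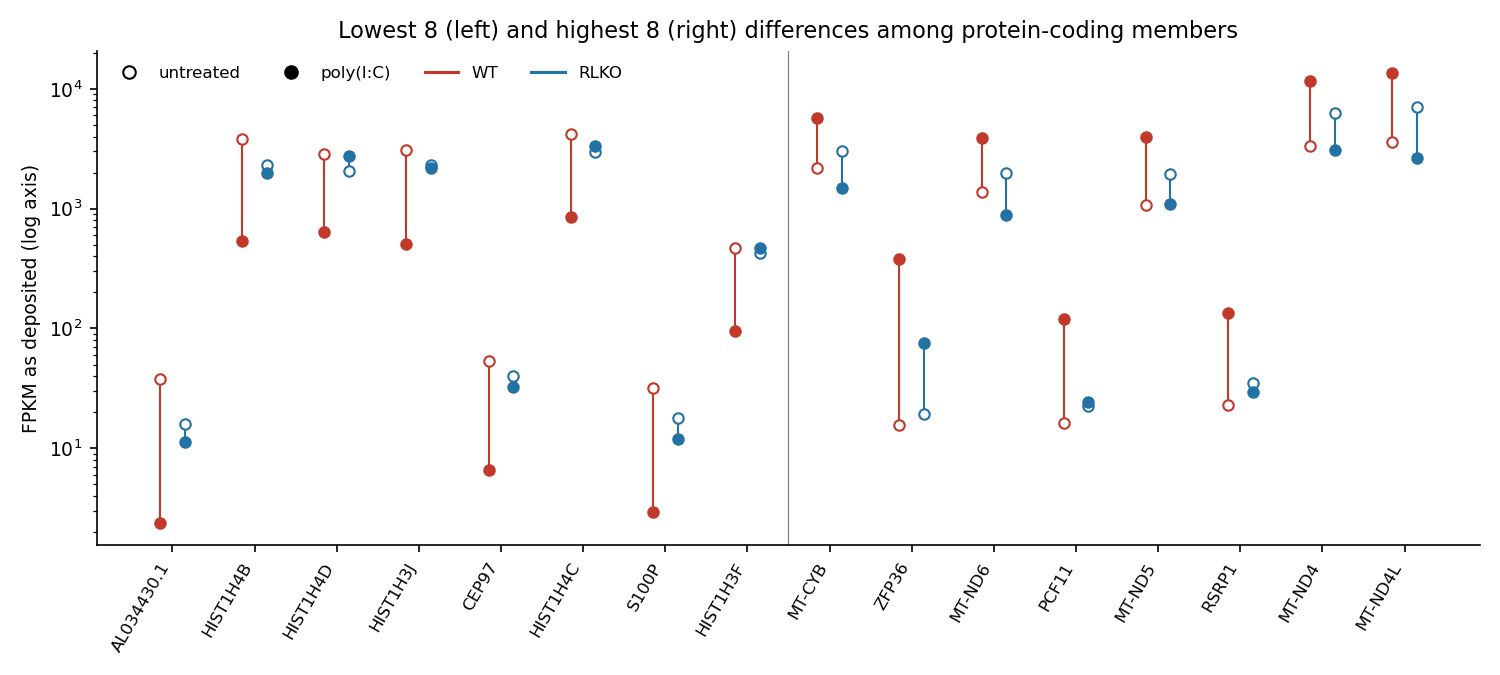
FPKM as deposited (log axis) of the 8 protein-coding members with the lowest and the 8 with the highest differences; open circles are untreated and filled circles treated cells, with WT left and RLKO right of each gene's position, and each point is 1 value pooled over 3 samples. In the low set treated WT is the lowest of the 4 values, and in the high set it is the highest.

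Transcripts of the mitochondrial chromosome went against the nuclear genes of the respiratory chain. The 23 members had a median difference of 1.19 (1.63 in FPKM as deposited), with 19 above 0. Their median change was 0.25 in WT, where 11 of the 23 lay below 0, and -1.19 in RLKO. The median length was 75 bases, and 12 of the members were tRNAs, with a median change of -0.24 in WT and -0.69 in RLKO. MT-ND4L, a complex I subunit, went from 3615 to 13495 FPKM in WT and from 7079 to 2652 in RLKO, higher in WT and lower in RLKO. MT-ND4 went from 3349 to 11569 and from 6286 to 3108. The 2 mitochondrial rRNAs lay at the other end: MT-RNR1 went from 348 to 80.0 FPKM in WT and from 59.4 to 94.6 in RLKO (-3.20), and MT-RNR2 lay at -2.99. rRNA was depleted before sequencing, and 1 of the 23 members passed in WT. The 4 further mitochondrial RNAs whose estimates had failed were left out.

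Processed pseudogenes, copies of messages without introns, had a median of -1.52 over 721 members. Of these, 594 (82.4%) lay at -1 or lower, against 41.3% of all members, shares that are not matched for level. Relative to members of the same level the median was -0.54, and of the same level and length -0.26. Their reads cannot be separated with certainty from those of their parent genes. Long noncoding RNAs lay higher, with a median of -0.24 over 59 lincRNAs and -0.37 over 92 antisense genes, whose reads can include those of the opposite strand. NEAT1 (ENSG00000245532, chromosome 11, 65422774 to 65445540), the scaffold of paraspeckles, rose in WT from 56.9 to 358 FPKM and went from 95.9 to 71.0 in RLKO, a difference of 2.63 with q = 0.00180 in WT in the authors' deposited table. MALAT1, of nuclear speckles, went from 3418 to 6630 FPKM in WT and from 5659 to 6123 in RLKO, a difference of 0.41 without passing. Both are retained in the nucleus. The list of nuclear-retained noncoding RNAs had a median of 0.22 over 11 members and spread widely. Of these, 4 lay below 0 and 7 above, from CRNDE (-1.35) to NEAT1. Among hosts of snoRNAs (median -0.30 over 21 members, 0.13 in FPKM as deposited) SNHG20 rose in WT and lay at 1.49, GAS5 lay at -0.996 and SNHG5 at -1.95.

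Short RNAs with the same class of cleavable dinucleotides lay at both ends of the differences. Because RNase L cuts after UA and UU, the stretch of 30 bases richest in both is shown for 3 RNAs of low difference, 1 near 0 and 1 of high difference, 5′ to 3′ as DNA letters from GENCODE release 29 (GRCh38), with every UA and UU in capitals.
RNY4 (chromosome 7, 148963328 to 148963357, plus strand): gTAgtgggTTAtcagaacTTATTAacaTTA
RNY3 (chromosome 7, 148983793 to 148983822, plus strand): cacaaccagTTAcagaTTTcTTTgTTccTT
RNU6ATAC (chromosome 9, 134164439 to 134164468, minus strand): cTAcTTcgtggcatcTAaccatcgTTTTTT
VTRNA1-1 (chromosome 5, 140711283 to 140711312, plus strand): TTTAgctcagcggTTAcTTcgacagTTcTT
RNU11 (chromosome 1, 28648671 to 28648700, plus strand): agaTTTcggaagcaTAaTTTTTTggTATTT
These windows hold 9, 8, 8, 8 and 11 such dinucleotides. Of all 30-base windows in the members' transcripts 12.97% hold at least 8 and 3.67% at least 11. Each window shown was picked as the richest of its RNA, so its high count among all windows follows from that choice and shows no enrichment. Over the whole RNA, RNY4 has 20.8 per 100 bases, RNY3 18.6, RNU6ATAC 13.5, VTRNA1-1 16.2 and RNU11 11.9, against a median of 12.2 over all members. The 11 spliceosomal members ran from 11.3 (RNU12) to 23.3 (RNU5D-1). RNAs of high density lay at both ends of the difference, RNY4 at -4.25 and RNU5D-1 at 2.65. Among the spliceosomal members the lowest difference, -2.28, was that of RNU6ATAC with its 13.5 per 100 bases.

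Y RNAs, small partners of the Ro protein, had the lowest values in treated WT. RNY4 went from 548.6 to 54.8 FPKM in WT and from 204 to 293 in RLKO, a difference of -4.25. RNY3 went from 793 to 31.9 in WT and from 426 to 171 in RLKO (-3.71). RNY1 fell in WT from 5867 to 542 and went from 3119 to 1572 in RLKO, a difference of -2.88 with q = 0.00546 in WT in the authors' deposited table. RNY4 and RNY3 did not pass. The vault RNAs were spread: VTRNA1-3 (-0.08) and VTRNA1-1 (0.16) lay near 0, VTRNA1-2 at -0.86 and VTRNA2-1 at -1.38. VTRNA2-1 went from 84.7 to 12.8 FPKM in WT and from 47.5 to 14.2 in RLKO, without passing in either.

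Spliceosomal RNAs lay at the opposite end, with a median of 1.76 over the 11 members of the list and 1.74 over all 57 small nuclear RNAs, 35 of which (61.4%, against 2.74% of all members) lay at 1 or higher. RNU11, of the minor spliceosome, rose in WT from 1154 to 9624 FPKM and went from 990 to 703 in RLKO, a difference of 3.12 with q = 0.00180 in WT in the authors' deposited table. RNU5D-1 rose in WT from 301 to 1394 and went from 373 to 202 in RLKO (2.65). RNU6ATAC, also of the minor spliceosome, fell in WT from 8585 to 1241 and went from 2994 to 1553 in RLKO, a difference of -2.28, so the class was not uniform. The FPKM of RNAs under 500 bases depends strongly on the length correction and on which fragments were kept. Of the 223 members at 1 or higher, 148 were that short. Short RNAs were frequent at both ends: of the 846 under 500 bases, 52.2% lay at -1 or lower and 17.5% at 1 or higher. Over all members these shares were 41.3% and 2.74%.

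The threshold of 10 FPKM divided genes of like values. Just inside it NCBP2-AS2, FZD2 and BRAT1 lay at -0.34, -0.89 and -1.47, and just outside MTFR1L, INVS and LINC00467 at -0.65, -0.13 and -1.22. After treatment 43 members were listed at 0 in at least 1 genotype, which may be failed estimates. Without them 3351 members lay at -1 or lower and 200 at 1 or higher.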

How the data were processed

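RNA-seq of 12 samples in 4 groups was deposited as 1 table of 58671 gene rows and 92 ERCC rows. Per the file headers, the authors gave 1 FPKM value per group, pooled over 3 samples, with p-values and q-values of treated against untreated cells per genotype, GC content in percent, lengths in bases and a half-life in hours from another study. Per the submitters' processing notes, the tools were Cuffdiff 2.2.1, Bowtie2 2.0.2, TopHat2 2.0.6, Trimmomatic 0.32 and FastQC, and the build was GRCh38.p12; read depth is unknown, and strand and settings are not stated.

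Only pooled values were analysed here, so no test of the difference between genotypes was made. Each group's FPKM was divided by its scale factor, the median ratio to the geometric mean of the groups over 49 ERCC rows that averaged 1 FPKM or more, and log2 changes were taken with a pseudocount of 1, which understates changes of low genes. Rows marked HIDATA (86) and repeats of an identifier (45) were left out. Level was the mean log2 value of both untreated groups; properties were split into quintiles within 20 bins of level, or within 50 cells of level and another property. The 95% intervals are binomial intervals of a median over genes, cover no spread between samples and take genes as independent. The fold used to count genes was -1 or lower and 1 or higher. Calls within a genotype are the authors' q under 0.05, with the direction taken from FPKM as deposited.

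Named were 20 fixed genes where they were members, the 8 lowest and 8 highest differences among protein-coding members above 0 FPKM in all groups, the 2 lowest and 2 highest of each of 30 lists, the 3 genes on each side of the threshold and the 2 at each end of a property. COL1A1, EPCAM, SFTPB, CDH1, CXCL8 and the other genes that rose in RLKO, and RNY1, VTRNA1-2 and VTRNA2-1, were named outside this rule. The check of the targeted gene in each group is not reported here. The members and lists were chosen with earlier results of these data known. All 58626 gene identifiers were found in GENCODE release 29, which gave classes, transcripts and coordinates; the total length equalled that of the longest annotated transcript in 100% of members, and the UTR lengths may come from other transcripts of the gene. Scripts were tested on simulated data. Computation used Python 3.11, numpy 2.4.6, pandas 2.3.3 and scipy 1.17.1.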

Additional observations from a re-analysis of the deposited data

How the results depend on the processing

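No paired analysis was possible because the deposited columns hold 1 pooled value per group and no replicate numbers; leaving out each replicate was not run for the same reason. The median difference (-0.85) was -0.89 with a pseudocount of 0.1, -0.71 with a pseudocount of 5, -0.48 with a filter of 1 FPKM, -1.13 with a filter of 30 FPKM, -0.43 in FPKM as deposited, -0.94 with summed ERCC rows and -0.81 in protein-coding genes alone. The count at -1 or lower (3366) was 1691 in FPKM as deposited. The count at 1 or higher (223) was 1258 with a filter of 1 FPKM, 74 with a filter of 30 FPKM, 378 in FPKM as deposited, 52 in protein-coding genes and 75 in genes of at least 500 bases. Over all members the step in the difference with total length (0.55) was 0.44 with a pseudocount of 5, 0.24 with a filter of 1 FPKM, 0.67 at 500 bases or more and 0.47 with 3 parts in place of quintiles. The step with half-life (-0.62) was -0.50 with a pseudocount of 5, -0.52 with a filter of 30 FPKM and -0.46 with 3 parts. With total length matched, 3′ UTR (0.32) reversed to -0.16 and 5′ UTR (0.23) was 0.11. GC (-0.09) changed sign to 0.089, with an interval over genes of -0.0018 to 0.18 that includes 0. In protein-coding members alone the steps were 0.56 for total length, 0.32 for 3′ UTR and -0.07 for GC. With half-life matched in those members they were 0.47, 0.20 and 0.061. The GC step changed sign there, but its intervals over genes include 0 in both settings (-0.14 to 0.01 and -0.04 to 0.15). With the untreated gap between genotypes matched, an alternative chosen after seeing the data, total length was 0.29, half-life -0.48, 3′ UTR 0.12 and GC reversed to 0.20. From treated WT against treated RLKO alone, also chosen after seeing the data as was matching on half-life, total length was 0.24, half-life -0.46, 3′ UTR 0.12 and GC reversed to 0.21. The cause of these shifts was not tested. Of 1652 values of 159 named genes under these alternatives, 24 moved back across the fold used or by more than a set margin. Of these 24, 12 were in FPKM as deposited, and 0 values reversed among genes at -1 or lower or 1 or higher. Of 302 list medians 25 left the interval over genes of the list's main median, 20 of them in FPKM as deposited.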

Other observations

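Further classes of short RNA were spread more widely than the messages, on the spike-in scale and with no test. The 185 small nucleolar RNAs had a median difference of -0.54, with 67 at -1 or lower and 39 at 1 or higher. The 56 genes annotated as miRNAs had a median of 0.83, with 13 at -1 or lower and 26 at 1 or higher, and the 85 of the miscellaneous class a median of -0.23, with 22 and 28. Among all members 41.3% lay at -1 or lower and 2.74% at 1 or higher. These RNAs are mostly under 500 bases, where FPKM depends on the length correction.

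Protein-coding members with 1 exon in their longest transcript (217) had a median of -0.89, close to the -0.81 of the 6504 with several, but a wider spread: 44.2% lay at -1 or lower and 5.99% at 1 or higher, against 38% and 0.6%. Histone messages and immediate early genes are both found among them.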
